A study of Homo sapiens with 12 samples.

Results

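The E2F transcription factors and the RB pocket proteins decide when a cell passes from G1 into DNA replication, and their messenger RNAs were followed here across a drug treatment and a knockdown in an Ewing sarcoma cell line. The 10 genes E2F1, E2F2, E2F3, E2F4, E2F5, E2F7, E2F8, RB1, RBL1 and RBL2 were chosen by symbol. Each matched exactly 1 of the 25787 named entries in the table, and all 10 were among the 14225 named entries with a mean normalised count of at least 10 that entered the tests. E2F6 was not among the genes chosen.

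RNA sequencing was done on total RNA of TC-71, a human cell line of Ewing sarcoma, a tumour driven by the EWS-FLI1 fusion protein, in 12 libraries of 4 groups. The groups were YK-4-279, an inhibitor made to keep EWS-FLI1 apart from the RNA helicase DHX9, then siDHX9, a transfection against DHX9, then a scrambled transfection, and DMSO alone. Drug and DMSO acted for 16 hours at 2 mM of drug as labelled, a unit that could not be checked and may be a misprint for micromolar, on cells labelled as wild type, and transfected cells were collected at 48 hours after reverse transfection with a lipid reagent in a double pulse. The labels state 3 biological replicates per group, all of 1 line, so the spread is that of cultures of that line. The protocol text names siRNAs and the design text names shRNAs. The labels give no sequence of either.

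In G1, RB1 holds the activators E2F1, E2F2 and E2F3 silent. Cyclin D and cyclin E kinases phosphorylate it, the activators are released, and genes of DNA replication are switched on. The pocket proteins RBL1 (p107) and RBL2 (p130) instead pair mainly with E2F4 and E2F5 and, with the MuvB proteins, form the DREAM complex that silences cell cycle genes in resting cells, while E2F7 and E2F8 bind DNA without a DP partner and repress E2F targets late in S phase. Several of the family are themselves E2F targets.

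Promoter windows are shown for E2F1 and RBL1, whose messenger RNA fell with YK-4-279, for E2F2, which holds the same E2F word but was not called on the deposited values, and for E2F4, which holds none. They come from RefSeq on GRCh38.p14, run 5′ to 3′ in the gene's direction from 250 bases before to 50 after the start of transcription, and capitals mark matches to TTTCCCGC, TTTCGCGC, TTTGCCGC or TTTGGCGC, searched on both strands, with overlapping matches each counted.
E2F1, chr20:33686336-33686635, minus strand: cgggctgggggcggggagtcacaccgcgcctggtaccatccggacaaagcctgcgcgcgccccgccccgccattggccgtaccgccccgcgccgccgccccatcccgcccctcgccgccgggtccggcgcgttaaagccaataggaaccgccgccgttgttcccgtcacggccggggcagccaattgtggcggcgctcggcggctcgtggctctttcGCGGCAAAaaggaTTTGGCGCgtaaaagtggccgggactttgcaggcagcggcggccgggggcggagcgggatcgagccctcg
RBL1, chr20:37095948-37096247, minus strand: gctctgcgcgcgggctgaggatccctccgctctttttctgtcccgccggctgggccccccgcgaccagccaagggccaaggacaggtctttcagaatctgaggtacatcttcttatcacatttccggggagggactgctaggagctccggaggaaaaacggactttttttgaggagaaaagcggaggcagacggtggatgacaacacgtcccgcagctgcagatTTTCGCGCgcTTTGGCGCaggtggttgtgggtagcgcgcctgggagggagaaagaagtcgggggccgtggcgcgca
E2F2, chr1:23531184-23531483, minus strand: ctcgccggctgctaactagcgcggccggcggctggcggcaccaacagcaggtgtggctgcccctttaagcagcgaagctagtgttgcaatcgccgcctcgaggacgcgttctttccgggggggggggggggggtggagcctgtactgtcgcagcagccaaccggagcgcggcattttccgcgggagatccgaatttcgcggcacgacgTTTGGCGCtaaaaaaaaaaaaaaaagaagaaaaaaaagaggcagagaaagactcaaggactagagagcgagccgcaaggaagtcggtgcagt
E2F4, chr16:67191905-67192204, plus strand: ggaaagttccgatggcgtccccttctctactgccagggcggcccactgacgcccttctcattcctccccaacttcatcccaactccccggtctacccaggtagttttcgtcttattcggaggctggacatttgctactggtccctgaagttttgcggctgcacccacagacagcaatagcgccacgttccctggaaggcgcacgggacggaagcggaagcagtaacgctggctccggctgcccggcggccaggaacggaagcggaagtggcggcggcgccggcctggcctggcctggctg

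The E2F1 window held TTTGCCGC on the other strand, its first base 33 bases before the start, and TTTGGCGC 20 bases before it. The RBL1 window held TTTCGCGC 26 bases and TTTGGCGC 16 bases before the start. At least 2 such matches occurred in 0.145% of the 35116 windows of all genes, and at least 1 in 3.31%.

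The E2F2 window held TTTGGCGC 42 bases before the start, and the first of the windows listed for E2F3 held TTTCCCGC on the other strand 53 bases before it. With E2F1 and RBL1, 4 of the 8 members scanned had a match, and E2F4 and E2F7 had none in this window. TTTGAA and TTCGAA, words of the cell cycle homology region that MuvB binds, were searched in the same way. TTTGAA lay 65 bases before the start of E2F3 and 24 bases after that of RBL2, against 16.4% of all windows with either word. The window listed for RB1 lies inside its annotated gene and held no match, and E2F5 and E2F8 are not shown.

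Levels are normalised read counts as the authors deposited them, given as mean ± SD with n = 3 per group, and changes are log2 fold changes ± SE from limma on log2 of the count plus 1, with Benjamini-Hochberg adjustment over all 14225 entries and a threshold of 0.05. Coordinates of genes are hg19. Libraries held 38568983 to 65547726 reads, and the entry for ribosomal RNA took 7.9 to 9.98% of them with YK-4-279, 1.76 to 3.59% in siDHX9, 3.52 to 5.2% in scrambled and 4.95 to 5.44% in DMSO libraries. The entry that joins NPL with DHX9 had a mean normalised count of 20608 ± 1098 with siDHX9, against 32689 ± 2132 with the scrambled control (log2 −0.66 ± 0.07 SE, limma adjusted p = 4.54e-05, exact permutation p = 0.1, the smallest possible). With YK-4-279 it held 29997 ± 597.3, against 34724 ± 1602 in DMSO (adjusted p = 0.0567). All 7 Ewing sarcoma markers examined were present, at a summed 55714 to 67420 normalised counts, and CD3E of T cells and KRT5 of basal epithelium were at 0 in all 12 libraries. The other epithelial markers were not all absent, with EPCAM at 1.85 to 18 and CDH1 at 0 to 7.32. Of the fibroblast markers DCN had a mean of 334.6 and LUM of 61.2, and the PDGFRA entries had means of 2.4 and 0.306. The summed leukocyte markers reached 46.5 to 68.5 with YK-4-279 against 8.95 to 17.9 in DMSO, with CD14, at up to 56.4, the 1 of the 5 whose mean over all libraries was above 10, and the fibroblast markers reached 448.5 to 699.4 in siDHX9 against 237.7 to 394.9 in scrambled libraries. The part of these shares and markers in the results was not tested.

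Per kilobase of exon the family was dominated by the repressors E2F4 and E2F5. Averaged over the 12 libraries, E2F4 stood at 995.8, E2F5 at 961.6 and E2F1 at 550.9 normalised counts per kb of GENCODE v29 exon, an annotation other than the one the reads were counted on. RB1 followed at 202.6, RBL2 at 153.8, E2F8 at 147.6, RBL1 at 104, E2F2 at 47.5, E2F3 at 26.9 and E2F7 at 16.3 counts per kb. E2F7 was thus the scarcest member, at 35 to 226 reads per library, and RB1 was the most abundant pocket protein in the mean of each group. The E2F5 gene shares 3101 bases with C8orf59, at a mean of 3298 normalised counts. How much of the E2F5 level, here and in the shares and changes below, comes from C8orf59 was not tested.

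The drug comparison asked what YK-4-279 changed against DMSO. E2F8, E2F1 and RBL1 fell, E2F8 by far the most, at 3.17-fold lower, and no member was called higher. That is 3 of 10 members called, against 13.8% of all entries tested in either direction, 6.49% called lower and 7.33% higher. Members had a median log2 fold change of −0.35, against 0.02 over all entries, and 8 of 10 were below 0. At an unadjusted p under 0.05 there were 4 members, E2F7 being the fourth. In 3 members the drug and DMSO libraries did not overlap, all lower, where 20.4% of entries were lower without overlap. These are bulk libraries, in which fewer cells in a phase of the cycle and less RNA per cell cannot be told apart.

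E2F8 (GSHG0005642, chr11:19245613-19263202) is an atypical factor that represses E2F1 and other S-phase genes. It held 295.1, 274.5 and 244.8 normalised counts in the YK-4-279 libraries, against 909.5, 877.8 and 794.8 in the DMSO libraries. Every drug library lay below every DMSO library by a wide margin. The level was 271.5 ± 25.3 with YK-4-279, against 860.7 ± 59.2 in DMSO (SD, n = 3), a log2 fold change of −1.66 ± 0.11 (adjusted p = 1.28e-06), and it was called under all 26 alternatives of processing and left-out libraries.

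E2F1 (GSHG0019120, chr20:32263293-32274210), the activator best known for driving S-phase entry and, when in excess, cell death, fell 1.32-fold. It held 1335, 1343 and 1284 normalised counts in the YK-4-279 libraries, against 1706, 1724 and 1785 in the DMSO libraries. The groups were tight and far apart. Means were 1321 ± 31.8 with YK-4-279, against 1738 ± 41.5 in DMSO (SD, n = 3), a log2 fold change of −0.40 ± 0.09 (adjusted p = 0.0143). The adjusted p was 0.0551 without DMSO replicate 3 and 0.0569 without YK-4-279 replicate 3, at a log2 fold change of −0.38 each time.

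E2F2 (GSHG0001849, chr1:23832920-23857714), a further activator, was at 231.3, 195.1 and 173.3 normalised counts with YK-4-279 and at 255.9, 286 and 200.3 in DMSO. The highest drug library lay above the lowest DMSO library, and the log2 fold change of −0.30 ± 0.16 was not called (adjusted p = 0.231). E2F3 (GSHG0025452, chr6:20402136-20493945), the third activator, was at 144.3 ± 21 with YK-4-279, against 132.3 ± 25.1 in DMSO (SD, n = 3), with a log2 fold change of 0.13 ± 0.27 (adjusted p = 0.789).

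The repressors that work with RBL1 and RBL2 showed no called change with the drug. E2F4 (GSHG0011274, chr16:67226065-67232821) held 2811, 2483 and 2602 normalised counts with YK-4-279, against 2615, 2627 and 2569 in DMSO, and the drug libraries lay on both sides of the DMSO libraries (log2 fold change 0.01 ± 0.10, adjusted p = 0.942). E2F5 (GSHG0029123, chr8:86089458-86129387) held 2059, 2020 and 1932 with YK-4-279, against 2202, 2039 and 2134 in DMSO (log2 fold change −0.08 ± 0.12, adjusted p = 0.686). The E2F5 gene shares 3101 bases with C8orf59, at a mean of 3298 normalised counts, and no source used here says whether counting was by strand. E2F7 (GSHG0007643, chr12:77415026-77459360), the atypical partner of E2F8, held 68.1, 35.2 and 56.4 with YK-4-279, against 124.6, 89.4 and 62.9 in DMSO. Its groups overlapped, and the log2 fold change of −0.78 ± 0.31 was not called (adjusted p = 0.113).

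Among the pocket proteins RBL1 fell with YK-4-279. RBL1 (GSHG0019165, chr20:35624760-35724618), p107, held 518.8, 403.2 and 407 normalised counts in the YK-4-279 libraries, against 771.4, 591.9 and 652.3 in the DMSO libraries. The groups did not overlap, with YK-4-279 replicate 1 the nearest to the DMSO libraries. Means were 443 ± 65.7 with YK-4-279, against 671.9 ± 91.4 in DMSO (SD, n = 3), 1.52-fold lower (log2 −0.60 ± 0.16, adjusted p = 0.0229). The call was lost in 4 of the 26 alternatives, with adjusted p values of 0.108 without DMSO replicate 1, 0.0567 without DMSO replicate 3, 0.0962 without YK-4-279 replicate 2 and 0.0842 without YK-4-279 replicate 3.

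RB1 (GSHG0008105, chr13:48877862-49056122), the retinoblastoma protein itself, held 1047, 648.5 and 779.7 normalised counts with YK-4-279, against 1165, 1089 and 950.2 in DMSO. YK-4-279 replicate 1 lay inside the DMSO range and the other two lay below it, and the log2 fold change of −0.40 ± 0.21 was not called (adjusted p = 0.22). RBL2 (GSHG0011189, chr16:53468332-53525561), p130 of resting cells, was at 650.4 ± 55.4 with YK-4-279, against 710.5 ± 41.7 in DMSO (SD, n = 3), with a log2 fold change of −0.13 ± 0.17 (adjusted p = 0.654). RB1 contains LPAR6 within 55135 shared bases, at a mean of 300.5 normalised counts, and RBL2 shares 609 bases with AKTIP, at 205.9.

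**Figure D1:**
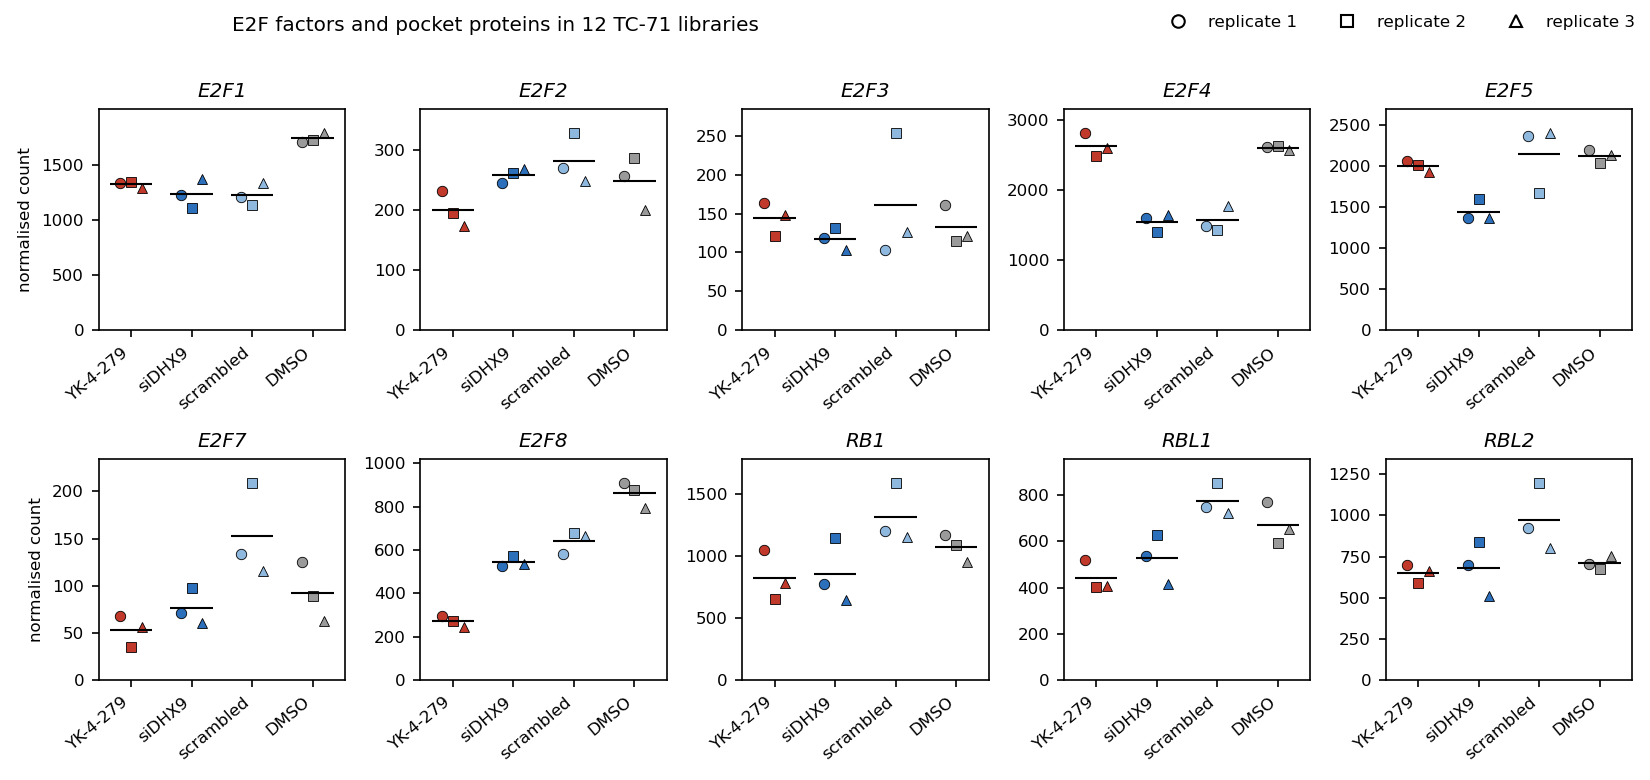
Normalised counts of the 10 members in each of the 12 libraries, with 1 panel per gene, symbols for replicate numbers and a line at each group mean, on linear axes that start at 0. The 3 YK-4-279 libraries of E2F8 sit between 244.8 and 295.1, below all other libraries, and E2F4 is between 2483 and 2811 in YK-4-279 and DMSO libraries but between 1400 and 1773 in siDHX9 and scrambled libraries.

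The atypical repressors were a smaller share of E2F messenger RNA in the drug libraries than in any other. On the scale of counts per kb, E2F7 and E2F8 together made up 2.68% ± 0.156 of the summed E2F counts with YK-4-279, 7% ± 0.511 in siDHX9, 7.44% ± 1.44 in scrambled and 7.12% ± 0.539 in DMSO libraries (SD, n = 3). The drug libraries spanned 2.53 to 2.84% and no other library was below 6.51%. E2F4 and E2F5 made up 77% ± 0.463 with YK-4-279, 67.1% ± 1.36 in siDHX9, 70.2% ± 3.38 in scrambled and 69.6% ± 0.299 in DMSO libraries. E2F1, E2F2 and E2F3 together made up 20.3% ± 0.501 with YK-4-279, 25.9% ± 1.84 in siDHX9, 22.4% ± 1.94 in scrambled and 23.2% ± 0.504 in DMSO libraries.

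The level of E2F8 per kb was 13.1% ± 0.973 of that of E2F1 with YK-4-279, 28.5% ± 4.13 in siDHX9, 33.5% ± 3.99 in scrambled and 31.6% ± 2.9 in DMSO libraries (SD, n = 3). E2F1 and E2F8 thus fell by unequal amounts, so that the repressor stood at a smaller share of the activator. Among the pocket proteins RB1 was at 43.7% ± 3.48 of their summed counts per kb with YK-4-279, against 45% ± 3.08 in DMSO, RBL1 at 20.5% ± 1.2 with YK-4-279, against 24.3% ± 1.9 in DMSO, and RBL2 at 35.8% ± 3.08 with YK-4-279, against 30.7% ± 2.83 in DMSO (SD, n = 3). No test was run on these shares.

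**Figure D2:**
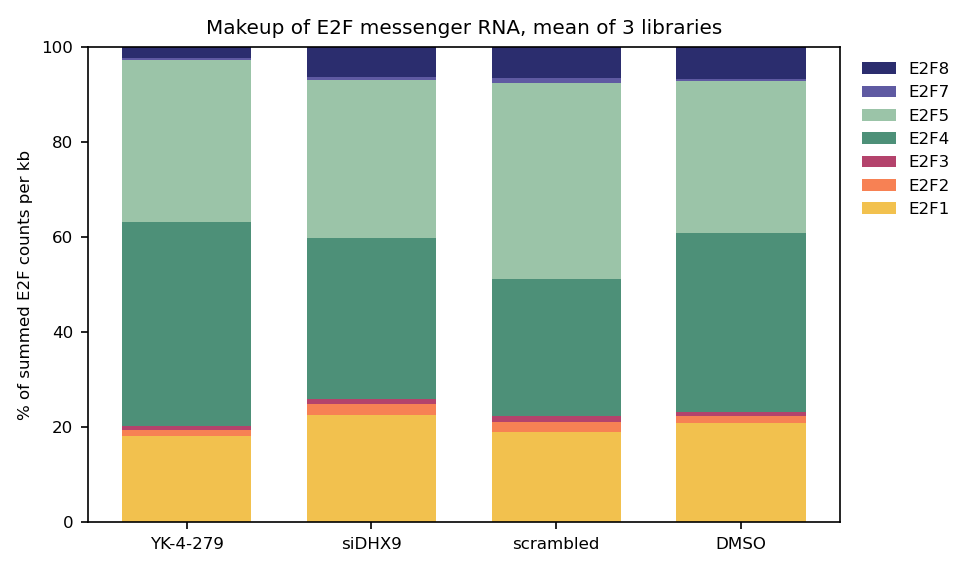
Share of each of the 7 E2F genes in the summed E2F normalised counts per kb of exon (percent, mean of 3 libraries) for YK-4-279, siDHX9, scrambled and DMSO. E2F8 makes up 2.36% with YK-4-279 and between 6.38 and 6.64% in the other groups, and E2F4 makes up 42.9% with YK-4-279 and 28.9% in scrambled libraries.

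The knockdown comparison set siDHX9 against scrambled libraries. E2F5, E2F7, RB1, RBL1 and RBL2 were called lower, 5 of 10 members, against 16.7% of all entries in either direction, 7.97% called lower and 8.75% higher. The members had a median log2 fold change of −0.43, against −0.00 over all entries, and 9 of 10 were below 0. Of the 5, E2F5 was called in 25 of 26 alternatives and RBL1 in 21, while RB1 was called in 12, E2F7 in 14 and RBL2 in 7. In 5 members the siDHX9 and scrambled libraries did not overlap, all lower, where 14.4% of entries were lower without overlap. Fitted on the 6 libraries of the comparison alone, limma called none of the 10 members, beside 492 of all entries, where the fit over all 12 libraries called 2378; 6 members had an unadjusted p under 0.05 in the fit over all libraries, and edgeR called 3 and DESeq2 called 5.

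E2F5 held 1364, 1606 and 1374 normalised counts in the siDHX9 libraries, against 2369, 1679 and 2406 in the scrambled libraries. The groups did not overlap, but scrambled replicate 2 lay close to the siDHX9 libraries and far from the other two of its group. Means were 1448 ± 137.3 in siDHX9, against 2151 ± 409.2 in scrambled libraries (SD, n = 3), 1.47-fold lower (log2 −0.56 ± 0.12, adjusted p = 0.00912). In the fit on the 6 libraries of the comparison alone the adjusted p was 0.0794.

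RBL1 held 538, 628.4 and 415 normalised counts in the siDHX9 libraries, against 750.2, 852.6 and 724.2 in the scrambled libraries. The groups did not overlap, and the mean was 1.49-fold lower with siDHX9, at 527.1 ± 107.1 against 775.7 ± 67.9 in scrambled libraries (SD, n = 3, log2 −0.57 ± 0.16, adjusted p = 0.0259). RB1 held 775.9, 1146 and 644.1 in siDHX9, against 1197, 1587 and 1153 in scrambled libraries, with siDHX9 replicate 2 just below the lowest scrambled library (log2 −0.64 ± 0.21, adjusted p = 0.0471). RBL2 held 698.3, 836.1 and 513.4 in siDHX9, against 924.2, 1198 and 801 in scrambled libraries. The RBL2 groups overlapped, and its log2 fold change was −0.52 ± 0.17 (adjusted p = 0.0499).

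E2F7 held 71.4, 97.9 and 60.5 normalised counts in siDHX9, against 133.4, 209 and 115.7 in scrambled libraries. Its groups did not overlap, and scrambled replicate 2 was far above all other libraries (log2 −0.97 ± 0.31, adjusted p = 0.0486). E2F8 held 526.6, 571.7 and 537.1 in siDHX9, against 583.4, 676.9 and 662.4 in scrambled libraries. The E2F8 libraries did not overlap either, but the log2 fold change of −0.23 ± 0.11 was not called (adjusted p = 0.149).

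E2F1 held 1220, 1102 and 1370 normalised counts in siDHX9, against 1209, 1134 and 1336 in scrambled libraries, and the values of the groups ran through each other (log2 fold change 0.00 ± 0.09, adjusted p = 0.987). E2F4 was at 1548 ± 128.5 in siDHX9, against 1565 ± 181.5 in scrambled libraries (SD, n = 3), with a log2 fold change of −0.01 ± 0.10 (adjusted p = 0.936). E2F2 was at 257.3 ± 11.8 in siDHX9, against 281.5 ± 41 in scrambled libraries, with a log2 fold change of −0.12 ± 0.16 (adjusted p = 0.635). E2F3 held 117.9, 131.7 and 102.7 in siDHX9, against 103.7, 253.4 and 126.7 in scrambled libraries. Its scrambled mean rests on replicate 2, and the log2 fold change was −0.35 ± 0.27 (adjusted p = 0.386), or 0.03 without that library.

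Scrambled replicate 2 was the highest of all 12 libraries for E2F2, E2F3, E2F7, RB1, RBL1 and RBL2, and siDHX9 replicate 3 was the lowest for E2F3, RB1 and RBL2. Without scrambled replicate 2 only E2F5 was called, and the adjusted p values were 0.177 for E2F7, 0.162 for RB1, 0.0835 for RBL1 and 0.183 for RBL2. E2F5 was also the only member called without scrambled replicate 1, without siDHX9 replicate 1 or without siDHX9 replicate 3, each left out alone. Without scrambled replicate 3 or siDHX9 replicate 2 all 5 were called.

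Libraries also differed in how their values followed transcript base composition and length. Across 12149 genes with a GENCODE transcript, which are not independent replicates, the deviation of a library from its group mean had a Spearman rho with GC content of −0.59 in siDHX9 replicate 2 and 0.57 in siDHX9 replicate 3, and of −0.39 in DMSO replicate 1 and 0.38 in YK-4-279 replicate 2. Scrambled replicate 2 had a rho with GC of 0.09. The group differences had a rho with GC of 0.47 for YK-4-279 minus DMSO and 0.40 for siDHX9 minus scrambled. With transcript length the rho was −0.14 for YK-4-279 minus DMSO and −0.33 for siDHX9 minus scrambled. It was 0.37 in siDHX9 replicate 2, −0.36 in siDHX9 replicate 3 and 0.26 in scrambled replicate 2. The adjustment below took off GC and length together, so the part of each was not tested. RB1 has the least GC of the members, at 37.3%, followed by RBL1 at 40%, E2F7 at 43.1% and RBL2 at 43.2%, and E2F1 has the most, at 62.5%.

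When each library's deviation was adjusted for transcript GC and length, an alternative chosen after the data were seen, E2F5 (log2 −0.55 ± 0.11, adjusted p = 0.00419) and RBL1 (−0.33 ± 0.10, adjusted p = 0.0428) were called lower in siDHX9. E2F7 (−0.76 ± 0.27, adjusted p = 0.059), RB1 (−0.38 ± 0.14, adjusted p = 0.0738) and RBL2 (−0.33 ± 0.13, adjusted p = 0.0842) were not. E2F1 had a log2 fold change of −0.22 ± 0.08 in siDHX9 on this scale (adjusted p = 0.0815). For YK-4-279 the same adjustment gave E2F8 −1.63 ± 0.09 (adjusted p = 1.19e-07), E2F1 −0.64 ± 0.08 (adjusted p = 0.000204), E2F2 −0.50 ± 0.14 (adjusted p = 0.0345) and RBL1 −0.46 ± 0.10 (adjusted p = 0.0094), all called lower. E2F2 was called under this alternative and under none of the other 25. Among the same entries the drug comparison then called 725 higher and 903 lower, where the unadjusted values called 962 higher and 757 lower.

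**Figure D3:**
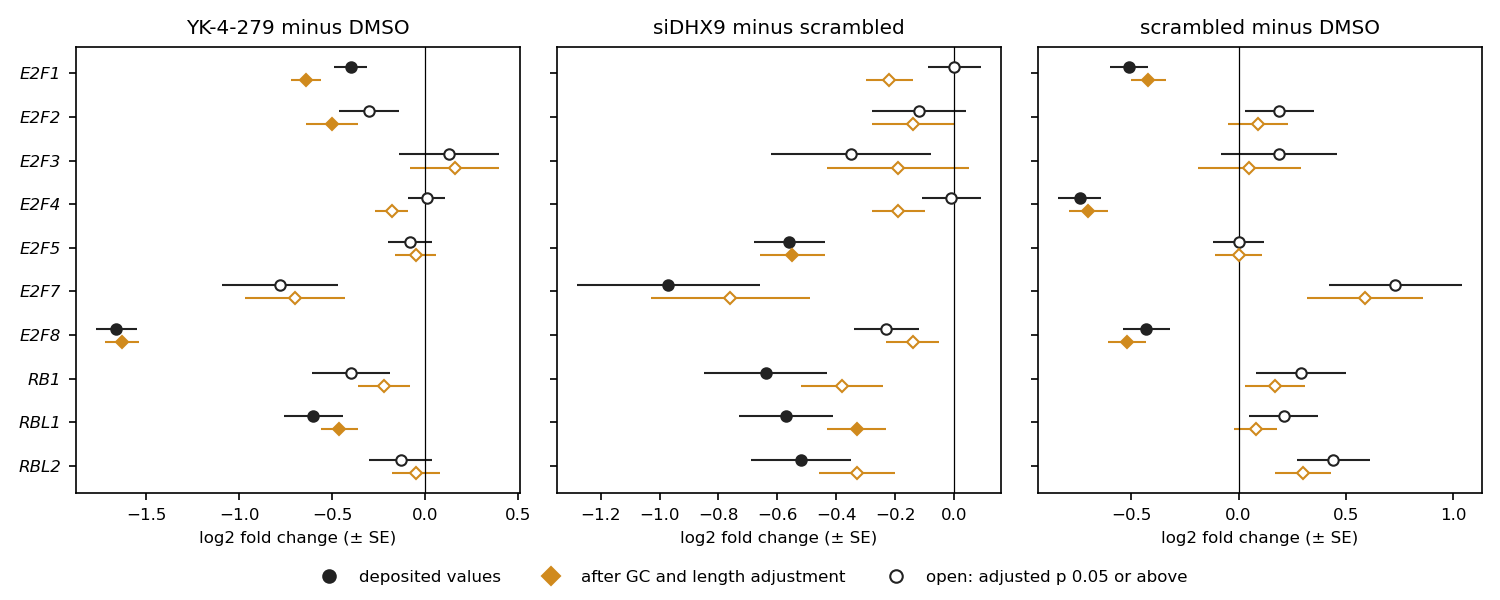
Log2 fold change ± SE of each member for YK-4-279 over DMSO (left), siDHX9 over scrambled (middle) and scrambled over DMSO (right), on the deposited values (circles) and after adjustment for transcript GC and length (diamonds), with filled symbols at an adjusted p under 0.05. E2F8 at −1.66 lies far to the left of all others in the drug panel, and in the knockdown panel the RB1, RBL1 and RBL2 symbols move toward 0 with the adjustment while E2F5 stays at −0.55.

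**Figure D4:**
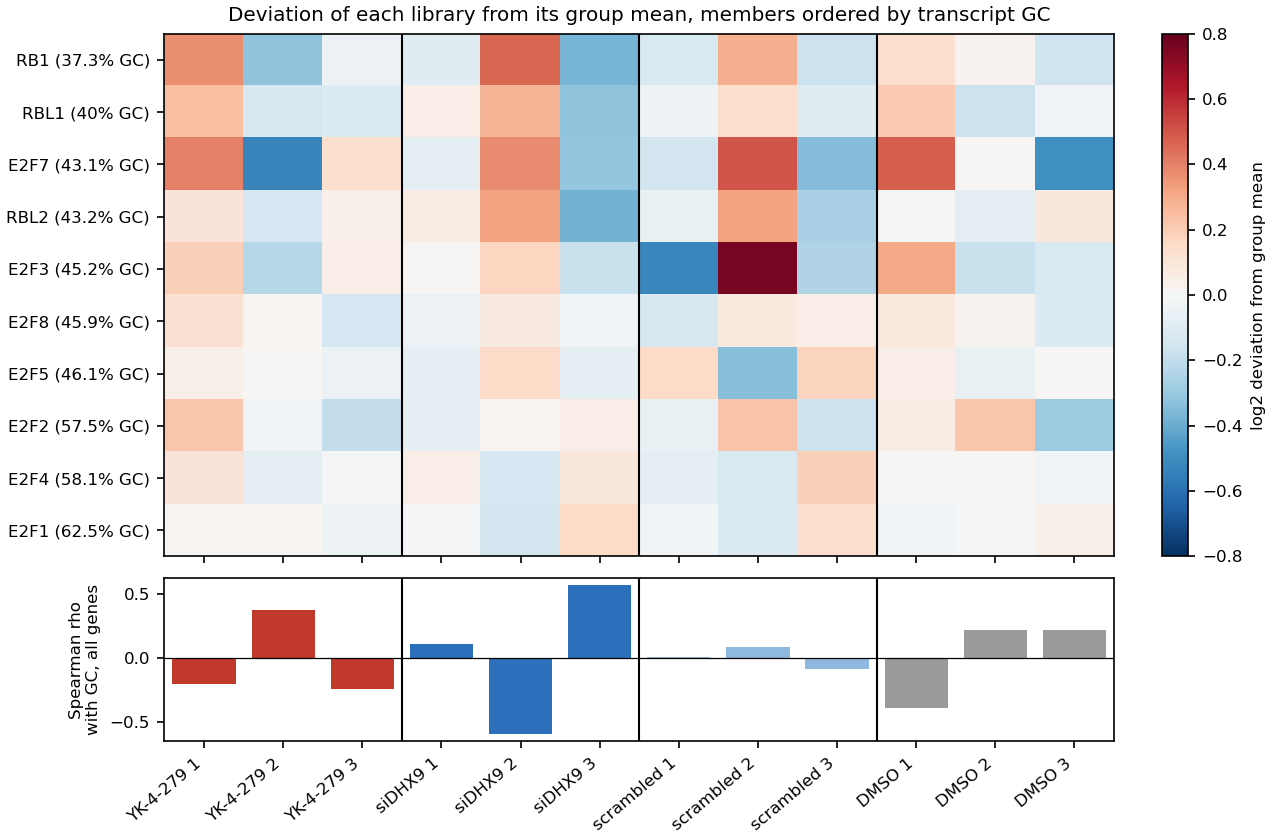
Upper panel, log2 deviation of each library from its group mean for each member, ordered by transcript GC, with red above and blue below the mean. Lower panel, Spearman rho across 12149 genes between each library's deviation and transcript GC, at −0.59 in siDHX9 replicate 2, where the members with the least GC are above their group mean, and 0.57 in siDHX9 replicate 3, where they are below it.

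The difference of the 2 effects, YK-4-279 over DMSO minus siDHX9 over scrambled, was called for 1 of 10 members, against 9.69% of all entries in either direction, 5.29% lower and 4.4% higher. It was E2F8, at −1.43 ± 0.15 on the log2 scale (adjusted p = 0.000149), called in all 25 alternatives run. E2F1 differed by −0.40 ± 0.13 (adjusted p = 0.0721) and E2F5 by 0.47 ± 0.17 (adjusted p = 0.0975), neither called on the deposited values. Of the 25 alternatives E2F1 was called in 4 and E2F5 in 3, among them the GC and length adjustment, with E2F1 at −0.42 ± 0.12 (adjusted p = 0.0276) and E2F5 at 0.50 ± 0.16 (adjusted p = 0.0427). RBL1, called lower both with YK-4-279 and with siDHX9, had a difference of −0.03 ± 0.22 (adjusted p = 0.954), with values without 1 library of −0.19 to 0.11.

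The controls differed from each other in E2F1, E2F4 and E2F8. Scrambled and DMSO cultures differ in transfection, vehicle and hours, which cannot be told apart here, and this comparison shares the scrambled libraries with the knockdown comparison and the DMSO libraries with the drug comparison. The 3 members were called lower in scrambled libraries, against 18.9% of all entries called in either direction, 9.22% lower and 9.7% higher, and the members' median was 0.19, against 0.02 over all entries. In 4 members the libraries did not overlap, 3 of them lower, where 18.8% of entries were lower without overlap.

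E2F4 held 1490, 1434 and 1773 normalised counts in scrambled libraries, against 2615, 2627 and 2569 in DMSO. No scrambled library came near a DMSO library, and the level was 1.67-fold lower (log2 −0.74 ± 0.10, adjusted p = 0.000288). E2F1 was at 1226 ± 102.1 in scrambled and 1738 ± 41.5 in DMSO libraries (SD, n = 3, log2 −0.51 ± 0.09, adjusted p = 0.00291). E2F8 was at 640.9 ± 50.3 in scrambled and 860.7 ± 59.2 in DMSO libraries (log2 −0.43 ± 0.11, adjusted p = 0.0148), with adjusted p values of 0.0591 to 0.0674 without DMSO replicate 1, DMSO replicate 2 or scrambled replicate 1.

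RBL2 lay higher in every scrambled library than in any DMSO library, at 974.6 ± 203.4 against 710.5 ± 41.7, but was not called (log2 0.44 ± 0.17, adjusted p = 0.0857). The other 6 members had adjusted p values of 0.117 to 0.999. E2F4 in siDHX9 libraries, at 1400 to 1638, likewise lay below every DMSO and YK-4-279 library. Over the 4 groups the order of E2F8 means was DMSO, scrambled, siDHX9 and YK-4-279 from high to low, with no overlap between neighbours. For E2F1 only DMSO stood apart from the next group, and for E2F5 only siDHX9 did. For RBL2 scrambled stood apart from DMSO, its neighbour in that order, but overlapped siDHX9. For E2F2, E2F3, E2F7, RB1 and RBL1 all neighbours in the order of the group means overlapped.

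In the gene lists around E2F and RB that follow, counts of called entries are to be read against the 13.8% of all entries called with YK-4-279, 16.7% with siDHX9, 18.9% between the controls and 9.69% for the difference of the effects. The DP proteins, without which E2F1 to E2F5 bind DNA poorly, showed no called entry with YK-4-279. TFDP1 had a log2 fold change of −0.24 (adjusted p = 0.0641) and TFDP2 of 0.28 (adjusted p = 0.0735), both with an unadjusted p under 0.05, and edgeR and DESeq2 each called 1. In siDHX9 libraries TFDP2 fell 1.38-fold, to 963.8 ± 74.8 against 1332 ± 142.6 in scrambled libraries (log2 −0.46 ± 0.10, adjusted p = 0.00742), while TFDP1 had −0.02 (adjusted p = 0.888). TFDP2 was 1.49-fold higher in scrambled than in DMSO libraries (adjusted p = 0.00171).

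Of the G1 cyclins, kinases and inhibitors that act on RB, 15 of 16 could be tested, and with YK-4-279 4 fell and 1 rose (median log2 −0.07, against 0.02 over all entries). CCNE2, a cyclin E that activates CDK2, fell 2.12-fold to 540.2 ± 53.6, against 1147 ± 126 in DMSO (adjusted p = 0.00235). CDK2 fell 1.45-fold (adjusted p = 0.00691), the other cyclin E, CCNE1, fell 1.43-fold (adjusted p = 0.028), and the inhibitor CDKN1B (p27) fell 1.44-fold (adjusted p = 0.0347). The entry that rose was CCND1, cyclin D1, named after its value was seen (log2 0.47, adjusted p = 0.00382). Without DMSO replicate 2 or 3 or any 1 YK-4-279 library, 2 fell and 1 rose. CCNE2 overlaps INTS8, at a mean of 8945 normalised counts, and CCND1 overlaps ORAOV1. Between the controls, 4 of the 15 were called lower and 1 higher in scrambled than in DMSO libraries. CCNE2 had a log2 fold change of −0.79 (adjusted p = 0.0109) and CCNE1 of −0.60 (adjusted p = 0.011). CCND1 was higher there, at 0.70 (adjusted p = 0.000222). CDK2 (−0.19, adjusted p = 0.252) and CDKN1B (0.23, adjusted p = 0.299) were not called between the controls.

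In siDHX9 libraries 2 of these 15 rose and no entry was called lower (median 0.12, against −0.00 over all entries). CDKN2C, the CDK4 and CDK6 inhibitor p18, rose 1.64-fold to 2305 ± 361.6, against 1404 ± 185.6 in scrambled libraries (adjusted p = 0.00133), and CDK4 rose 1.25-fold (adjusted p = 0.0207). Both were lower in scrambled than in DMSO libraries, CDKN2C by a log2 fold change of −0.74 (adjusted p = 0.000907) and CDK4 of −0.26 (adjusted p = 0.0496). The 2 called are a share near that of all entries. The count was 1 without scrambled replicate 1 or siDHX9 replicate 3, 3 higher and 2 lower without scrambled replicate 3, and 5 higher without siDHX9 replicate 2. CDKN2A, the inhibitor p16, was listed at 0 to 6.47 normalised counts, 28 reads over the 12 libraries, and was not tested.

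Of 23 E2F targets of G1/S, which license and build replication forks or make nucleotides, 15 fell with YK-4-279 and none was called higher (median log2 −0.47, against 0.02 over all entries). CDC45 of the replicative helicase fell 1.81-fold, to 4406 ± 97.5 against 7965 ± 84.9 in DMSO (adjusted p = 8.28e-06). CDC6, which loads that helicase, fell 1.75-fold to 2593 ± 59.3 (adjusted p = 0.000143), and RRM2 of ribonucleotide reductase fell 1.66-fold to 23836 ± 470.7 (adjusted p = 2.32e-05). Without 1 library the count was 13 to 16.

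In siDHX9 libraries 2 of the 23 fell and 1 rose (median −0.05, against −0.00 over all entries), a share no higher than the 16.7% of all entries. PCNA, the sliding clamp, fell 1.4-fold to 12015 ± 805, against 16892 ± 1916 in scrambled libraries (adjusted p = 0.00165), RRM1 fell 1.18-fold (adjusted p = 0.0301) and CDC6 rose 1.29-fold (adjusted p = 0.021). Between the controls 6 of the 23 were called lower in scrambled than in DMSO libraries and none higher, PCNA by a log2 fold change of −0.37 (adjusted p = 0.00722) and CDC6 of −0.31 (adjusted p = 0.0356) among them. With 1 library left out, the control comparison called 3 to 7 of the 23. For siDHX9 against scrambled libraries the count was 1 fallen without scrambled replicate 1, and 5 fallen and 2 risen without siDHX9 replicate 2. The difference of the effects was called lower for 10 of the 23, CDC6 by −1.17 ± 0.13 (adjusted p = 0.000213), and for 5 to 10 with 1 library left out, 5 without YK-4-279 replicate 3 or scrambled replicate 1 and 6 without YK-4-279 replicate 2 or any 1 DMSO library.

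Of 22 tested DREAM targets of G2/M, genes of mitosis that DREAM silences, 15 fell and 3 rose with YK-4-279 (median log2 −0.49, against 0.02 over all entries). CDK1, the mitotic kinase, fell 3.86-fold to 1360 ± 75.1, against 5248 ± 198.7 in DMSO (adjusted p = 1.41e-08). TOP2A, which untangles chromosomes, fell 3.6-fold (adjusted p = 0.000622) and NUSAP1 of the spindle fell 1.83-fold (adjusted p = 1.86e-05). UBE2C, a ubiquitin-conjugating enzyme that works with the anaphase-promoting complex, fell 2.88-fold (adjusted p = 1.72e-06). TOP2A overlaps RARA, at 678.4 normalised counts on average. The 3 that rose, named after their values were seen, were CDC20 (log2 0.55, adjusted p = 0.00274) and PLK1 (0.45, adjusted p = 0.0237), which act at anaphase and in mitosis, and cyclin CCNB2 (0.20, adjusted p = 0.0479). Without DMSO replicate 1 or 2 or any 1 YK-4-279 library only 1 entry rose, and 2 rose without DMSO replicate 3.

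In siDHX9 libraries 5 of the 22 fell and 1 rose, the proliferation marker MKI67, named after its value was seen (log2 0.22, adjusted p = 0.0484). With 1 library left out, an entry of this list was called higher only without scrambled replicate 3 or siDHX9 replicate 2. CDC25C, a phosphatase that activates CDK1, fell 1.57-fold (adjusted p = 0.00193), CCNB2 fell 1.37-fold (adjusted p = 0.000632) and the checkpoint kinase TTK fell 1.36-fold (adjusted p = 0.0103). CDC25C, at a mean of 663.6 normalised counts, overlaps FAM53C, at 2900. The median was −0.15, against −0.00 over all entries, and 3 fell without siDHX9 replicate 1, while 10 fell and 1 rose without siDHX9 replicate 2. In scrambled against DMSO libraries 5 of the 22 were called higher, CDC25C (log2 0.43 ± 0.11, adjusted p = 0.016) and CCNB2 (0.23, adjusted p = 0.0246) among them, but 1 without DMSO replicate 2 or 3 or scrambled replicate 1 or 2, and 3 without DMSO replicate 1.

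The MuvB core with its partners MYBL1, MYBL2 and FOXM1 had none of 8 entries called with YK-4-279 by limma (median −0.20, against 0.02 over all entries, 3 with an unadjusted p under 0.05, and 1 called by each of edgeR and DESeq2). In siDHX9 libraries LIN52, the MuvB subunit that joins it to a pocket protein, fell 1.32-fold to 492.8 ± 46.2, against 650.8 ± 36.7 in scrambled libraries (adjusted p = 0.0282). That call was lost without any 1 of the scrambled libraries, siDHX9 replicate 1 or siDHX9 replicate 3. FOXM1, which drives mitotic genes, was 1.42-fold higher in scrambled than in DMSO libraries (adjusted p = 0.0175) and overlaps the joint entry of RHNO1 and TULP3, at 3366 normalised counts. No entry of this list was called between the controls without DMSO replicate 3 or scrambled replicate 2.

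Of 13 corepressors that RB or E2F recruit, 2 fell with YK-4-279, a share near the 13.8% of all entries (median −0.13, against 0.02 over all entries). RBBP8 (CtIP), an RB-binding protein of break repair, fell 1.55-fold to 2274 ± 65.5, against 3536 ± 167.7 in DMSO (adjusted p = 0.000277), and the histone-binding RBBP7 fell 1.15-fold (adjusted p = 0.0373). Without 1 drug or DMSO library 1 of the 13 was called, and without scrambled replicate 2 or 3 or siDHX9 replicate 2 or 3 there were 5. In siDHX9 libraries limma called none of the 13, with 3 at an unadjusted p under 0.05, 1 called by edgeR and 2 by DESeq2.

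Among 4 genes of E2F1 turnover, FBXO5 (EMI1), an inhibitor of the anaphase-promoting complex, fell 2.51-fold with YK-4-279 to 1440 ± 121.3, against 3604 ± 182.9 in DMSO (adjusted p = 1.24e-05). CCNF, cyclin F, which marks activator E2Fs for destruction, fell 1.83-fold (adjusted p = 0.00158). In siDHX9 libraries SKP2, a ubiquitin ligase subunit, fell 1.41-fold to 1202 ± 49.2, against 1695 ± 51.2 in scrambled libraries (adjusted p = 0.00493), and it was higher in scrambled than in DMSO libraries (log2 0.33, adjusted p = 0.0314).

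Of 8 targets through which E2F1 acts on cell death, 1 fell and 1 rose with YK-4-279 (median −0.19, against 0.02 over all entries). CASP8AP2, a caspase-8 partner, fell 1.59-fold (adjusted p = 0.00349) and BCL2L11 (BIM) rose 1.52-fold to 298.2 ± 13.1, against 197.1 ± 33 in DMSO (adjusted p = 0.0135). Without DMSO replicate 2 or 3 or YK-4-279 replicate 2 only 1 was called, lower. In siDHX9 libraries BBC3 (PUMA) was at 121.7 ± 20.1, against 311.6 ± 175.8 in scrambled libraries (log2 −1.16 ± 0.37, adjusted p = 0.0461), with overlapping libraries. APAF1 of the apoptosome fell 1.96-fold in siDHX9 (adjusted p = 0.0257). Both calls were lost without scrambled replicate 1 or 2 or siDHX9 replicate 1 or 3, 1 entry was called without any 1 YK-4-279 or DMSO library, and each of BBC3 and APAF1 was higher in scrambled than in DMSO libraries (log2 1.36 ± 0.37, adjusted p = 0.0219, and 1.20 ± 0.27, adjusted p = 0.00764).

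**Figure D5:**
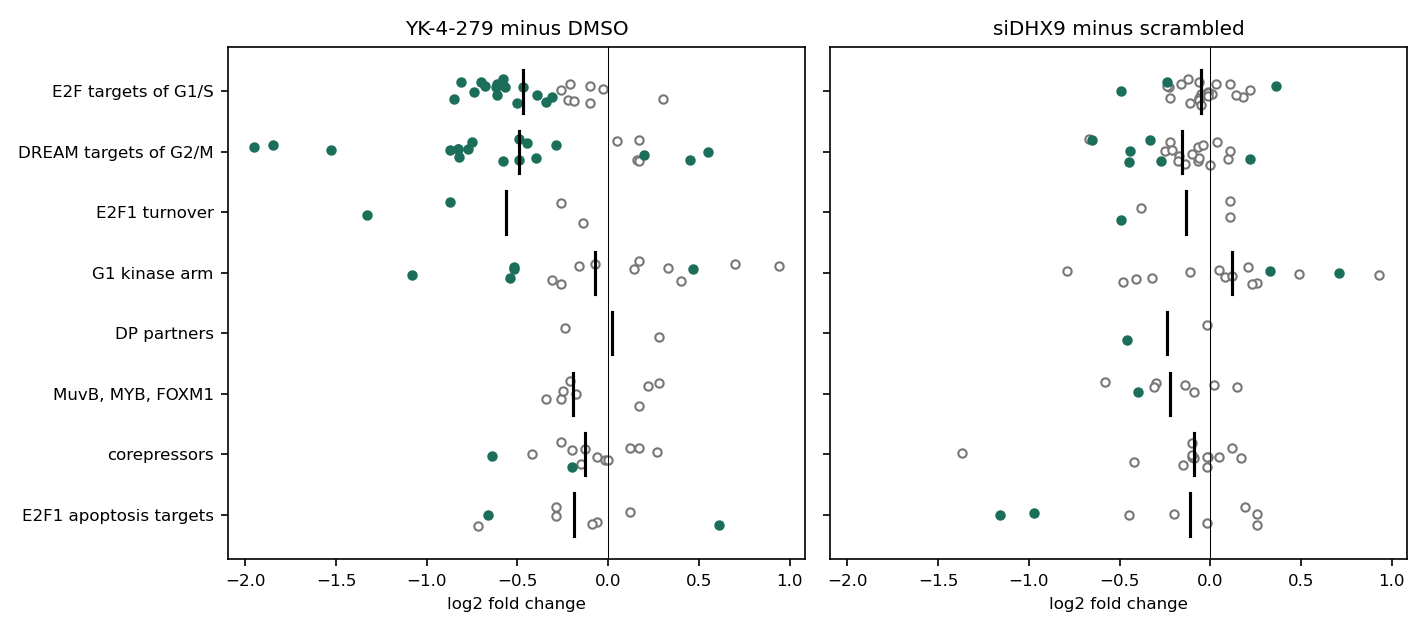
Log2 fold change of every tested entry of the 8 gene lists around E2F and RB, 1 circle per entry, with filled circles at an adjusted p under 0.05 and a bar at each list's median. In YK-4-279 minus DMSO the medians of the G1/S and G2/M targets lie at −0.47 and −0.49, and in siDHX9 minus scrambled at −0.05 and −0.15.

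The patterns most like those of 4 members over the 12 libraries were sought among 10923 named entries with a mean of at least 100, by Pearson r of log2 values. E2F8 was closest to CHAF1B, a histone chaperone (r = 0.984), EXO1, a DNA exonuclease (0.977), and BUB3 of the spindle checkpoint (0.976). E2F1 was closest to HPDL (0.923), PRR22 (0.913) and CHST1 (0.907). RB1 was closest to LTN1 (0.979), ZNF714 (0.971) and ZFYVE16 (0.969), and RBL2 to SLC39A10 (0.986), SPIRE1 (0.969) and KMT2E (0.964). These r values describe 12 points in 4 groups that share library depth and composition, and carry no test.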

How the data were processed

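Total RNA of 12 TC-71 libraries, 3 per group, was sequenced. The authors deposited 1 signal value per entry and library, a read count they had normalised, on FASTDB entries with hg19 coordinates per the file headers. The submitters' processing notes name FastQC, Picard, SAMtools, STAR 2.4.0, DESeq and the hg19 build. No source used here gives strand, aligner settings or size factors. Entries without a symbol (3.91 to 4.9% of reads) were not tested.

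For named entries with a mean of at least 10, log2 of the value plus 1 entered limma 3.58.1 (R 4.3.3), fitted to the 12 libraries together with a mean for each group, a trended prior variance, 8 residual degrees of freedom and two-sided p-values with Benjamini-Hochberg adjustment over 14225 entries. The fit was run on simulated data in which all genes and groups had the same replicate spread. These libraries differ from that, so the run does not show how the fit performs on them. Low values were multiples of 1 step per library, and division by it left 100% of these in each library whole to within 0.1. In 4 libraries (DMSO 2, YK-4-279 2 and 3, scrambled 3) the step lies so near 1 that recovery is less certain, although a step of exactly 1 would leave only 12.3 to 23% of their low values whole. Totals were 38568983 to 65547726 reads. These reads went into edgeR 4.0.16 and DESeq2 1.42.0 as alternatives. Reads without molecular identifiers bound counting error only. The squared differences of replicate pairs within a group were 6.87 to 91.4 times the variance that counting alone gives (chi-square per degree of freedom). This ratio was 29.2 to 91.4 in siDHX9 and 30.2 to 40.8 in scrambled pairs. It was 8.36 to 24.1 in YK-4-279 and 6.87 to 18.1 in DMSO pairs. The limma fit over the 12 libraries shares 1 estimate of the spread among the 4 groups.

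Other alternatives were pseudocounts of 0.5 and 10, no filter or one at a mean of 50, quantile or TMM scaling, fits restricted to a comparison's own libraries, robust moderation, no trend, the replicate number as a block and each library left out. After the data were seen, a fit was added in which each library's deviation was smoothed on transcript GC and length (loess, span 0.3) for the 12149 entries (85.4%) with a GENCODE v29 transcript, beside the same entries unadjusted. The members, the 8 lists of 96 genes and the tests were chosen with earlier results of these data known. The text names all members, up to 4 called entries per list and comparison with the largest change, DHX9, and for 4 members the 3 entries most alike. Promoters are from RefSeq GRCh38.p14, a build other than that of the counts. 1 entry that this rule names is not reported here.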

Additional observations from a re-analysis of the deposited data

Results flagged for a closer look

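For 1 member and 14 other genes, named from the lists by the size of the difference, the effect of YK-4-279 over DMSO differed from that of siDHX9 over scrambled, by limma's test of the difference itself (log2 YK-4-279 effect minus siDHX9 effect, Benjamini-Hochberg adjusted over all 14225 entries). E2F8 differed by −1.43 (adjusted p = 0.000149).

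Of the 22 tested DREAM targets of G2/M the difference was called lower for 7 and higher for 2. Of the 23 G1/S targets it was called lower for 10 and higher for none. Over all entries 9.69% were called, 5.29% lower and 4.4% higher. With 1 library left out, 8 to 14 of the DREAM targets and 5 to 10 of the G1/S targets were called. Among the targets with the largest differences, CDK1 differed by −1.89 (adjusted p = 2.2e-06), UBE2C by −1.64 (adjusted p = 4.07e-05), CDC6 by −1.17 (adjusted p = 0.000213), MKI67 by −0.97 (adjusted p = 0.000149), RRM2 by −0.85 (adjusted p = 0.00022), CDC45 by −0.79 (adjusted p = 0.000353) and KIF23 by −0.67 (adjusted p = 0.00943).

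Among regulators, FBXO5 differed by −1.44 (adjusted p = 0.000212), CCNE2 by −0.98 (adjusted p = 0.0338), CDKN2C by −0.97 (adjusted p = 0.00257), CDKN2D by −0.80 (adjusted p = 0.0412), CCNE1 by −0.78 (adjusted p = 0.0276) and RBBP8 by −0.76 (adjusted p = 0.00138). Of the 15 tested G1 cyclins, kinases and inhibitors the difference was called for 6, all lower, and for 1 to 9 with 1 library left out. CDKN2D itself was called neither with YK-4-279 (log2 −0.31, limma adjusted p = 0.222) nor with siDHX9 (0.49, adjusted p = 0.0506). Differences above 0 were called for TFDP2, by 0.74 (adjusted p = 0.00537), and for the 2 DREAM targets CCNB2, by 0.66 (adjusted p = 0.000821), and CCNB1, by 0.35 (adjusted p = 0.0195), these 2 named after their values were seen.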

How the results depend on the processing

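Of the 1030 member log2 fold changes under an alternative, 926 kept their direction and side of the threshold, 60 lost their call, 11 gained one and 33 changed sign. E2F4 in the drug comparison was −0.01 with TMM, −0.01 in edgeR, −0.00 in DESeq2, −0.18 after GC and length adjustment and −0.03 to 0.05 without 1 library, E2F1 in the knockdown comparison −0.01, −0.01, −0.00, −0.22 and −0.08 to 0.08 in the same settings, and E2F5 in scrambled minus DMSO 0.02 with quantile normalisation, 0.01 in edgeR, 0.00 in DESeq2 and −0.09 to 0.17 without 1 library. Without 1 library, siDHX9 minus scrambled ran from −0.61 to 0.03 for E2F3 and −0.07 to 0.08 for E2F4, scrambled minus DMSO from −0.19 to 0.45 for E2F3, and the difference of effects from −0.06 to 0.09 for E2F4, −0.06 to 0.46 for E2F7 and −0.19 to 0.11 for RBL1. Without 1 library, members called were 1 to 3 for the drug, 1 to 5 for the knockdown and 1 to 3 for the difference, and entries called were 858 to 2795, 1244 to 4255, 1431 to 3485 (scrambled minus DMSO) and 762 to 1883 (difference). Fits on the 6 libraries of a comparison called 4270 entries for the drug, against 1965 in the fit over all libraries, and for the knockdown 492 entries and 0 members, against 2378 entries and 5 members. Knockdown members were 2 with no minimum, 2 with no trend, 3 in edgeR and 2 after GC and length adjustment. The difference called 2 members and 2097 entries in DESeq2 and 3 members after the adjustment. Same-numbered libraries deviated together by correlations of −0.02 to 0.12, and libraries of different numbers by −0.14 to 0.08. Deviations from a mean of 3 libraries sum to 0, so this check cannot settle whether the numbers pair the libraries. With the replicate block the knockdown called 3 members, while the drug and control comparisons called 3 members each. The cause of these changes was not tested. E2F7 had the fewest reads of the members, 35 to 226 per library.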
